A study of Mus musculus with 9 samples.

Results

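The stretch of mouse chromosome 10 that carries the labels Rps26, Pa2g4 and Cdk2 was taken as all StyI restriction fragments with a midpoint between 127970000 and 128370000 on the mm9 build. It held 524 of the 3053721 fragments counted genome-wide. A flank of 300 kb on its left, toward lower coordinates, held 404 fragments, and a flank of 300 kb on its right held 339. The stretch was chosen by the measured HRS over Loop ratio, as a long run of 10 kb bins called higher in HRS than in Loop libraries. Its HRS and Loop values, and their ratios to input, are therefore given as a description, and calls inside it support nothing. Tests are drawn on in the flanks.

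The cells were E14Tg2a, a mouse embryonic stem cell line on the 129P2 background, grown on gelatin with LIF, and all libraries come from that line. The 3 HRS libraries hold DNA of high-salt recovered sequences, the fraction that stays with the insoluble material after nuclei are extracted with high salt and digested. The 3 Loop libraries hold the DNA released in the same assay, and the 3 input libraries, titled D0, D12 and D21 with no further explanation, hold unfractionated genomic DNA. The labels do not say whether the 3 libraries of a fraction came from separate cultures, and a p-value here rests on the variation among these libraries alone, which may be technical.

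High-salt recovery is an operational fractionation. DNA bound up with large insoluble nuclear assemblies is retained, while DNA on free chromatin loops is washed out. The 9 member genes cover several roles. Rps26 encodes a protein of the small ribosomal subunit, and Pa2g4 encodes a proliferation-associated protein also known as ErbB3-binding protein. Erbb3 is a receptor tyrosine kinase for neuregulins, and Cdk2 is the cyclin-dependent kinase of entry into and passage through S phase. Ikzf4 is a zinc finger transcription factor of the Ikaros family, and Suox is the mitochondrial sulfite oxidase. Pmel is a structural protein of pigment granules, Sarnp takes part in mRNA export, and Gdf11 is a secreted ligand of the TGF-beta family. The libraries are DNA, so they hold no measure of the expression of these genes.

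Gene order was read from RefSeq on GRCm38.p6, a later build than the files', where all 9 members were found. From Pa2g4 to Gdf11 there were 16 protein-coding genes, in the order Pa2g4, Erbb3, Rps26, Ikzf4, Suox, Rab5b, Pmel, Cdk2, Dgka, Pym1, Mmp19, Tmem198b, Dnajc14, Ormdl2, Sarnp and Gdf11. Beyond Gdf11 lay 5 more, Cd63, Rdh5, Bloc1s1, Itga7 and Mettl7b, and then an unbroken run of 50 olfactory receptor genes that began with Olfr9. On the other side, before Pa2g4, lay Rpl41, Zc3h10, Esyt1, Myl6b, Myl6, Smarcc2, Rnf41, Nabp2, Slc39a5, Ankrd52, Coq10a and Cs. No mm9 annotation was used here, so no gene was placed on a fragment or bin, and the gene content of the stretch was not checked on the files' own build. All values are given by mm9 position.

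The assay reads DNA next to StyI sites, which read CCAAGG or its reverse complement CCTTGG, or else the palindrome CCATGG or a further palindrome CCTAGG, so promoters of member genes are shown to set where such sites lie near a gene start. Of the 9 members, 6 had a promoter entry in RefSeq on GRCm38.p6, taken here as the 250 bases before the gene start and printed 5′ to 3′ on the gene's strand. The capitals mark a StyI site.
Cdk2: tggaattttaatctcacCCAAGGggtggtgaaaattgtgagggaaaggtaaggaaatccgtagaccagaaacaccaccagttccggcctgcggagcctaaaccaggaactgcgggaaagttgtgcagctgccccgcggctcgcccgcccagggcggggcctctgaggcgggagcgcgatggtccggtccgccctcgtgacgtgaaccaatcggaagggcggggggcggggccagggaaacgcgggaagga
Rps26: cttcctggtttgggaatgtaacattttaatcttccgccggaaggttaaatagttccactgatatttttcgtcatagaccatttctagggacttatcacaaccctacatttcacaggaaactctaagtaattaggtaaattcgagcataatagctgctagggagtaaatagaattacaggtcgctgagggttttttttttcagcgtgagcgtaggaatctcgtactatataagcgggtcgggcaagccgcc
Pa2g4: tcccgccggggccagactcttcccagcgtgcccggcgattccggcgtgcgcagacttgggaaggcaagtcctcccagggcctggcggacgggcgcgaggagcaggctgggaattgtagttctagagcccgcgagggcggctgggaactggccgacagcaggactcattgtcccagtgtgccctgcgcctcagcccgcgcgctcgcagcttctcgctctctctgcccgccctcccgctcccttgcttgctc
The Cdk2 window is chr10:128705052-128705301, the Rps26 window chr10:128626507-128626756 and the Pa2g4 window chr10:128565935-128566184, all on the minus strand. Cdk2 was the member with a StyI site in its window, at base 18 from the 5′ end, and the other 5 windows (Rps26, Pa2g4, Suox, Sarnp and Gdf11) held none of these letters. Of all 32851 promoter windows in the table, 29.2% held a StyI site on either strand. GC content was 69.6% for Pa2g4, 74.4% for Suox, 63.2% for Cdk2, 57.6% for Sarnp and 81.2% for Gdf11, above the median of 52.4% over all windows. Rps26 lay below that median at 41.6%. All 6 windows held more CpG dinucleotides than the median window (6), between 11 in Rps26 and 35 in Suox.

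Depth was even within groups except in 1 library. The 9 libraries held between 39.1 M tags in HRS replicate 3 and 62.9 M tags in Loop replicates 1 and 2. The replicate 3 libraries of HRS and Loop held a larger share of chromosomes 8, 11 and Y than the rest, with chromosome 11 at 1.32 times its input share in HRS replicate 3 and 1.21 times in Loop replicate 3. On chromosome 10 the shares over input were 1.04, 1.03 and 0.989 in HRS and 0.983, 0.975 and 0.947 in Loop libraries. Values without the replicate 3 fractions stand beside the summed results.

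The stretch was held in the insoluble fraction at a higher level than in the released fraction, along its whole length. Its summed tags came to 448, 423 and 481 CPM (counts scaled to each library's total) in HRS libraries, to 224, 228 and 220 CPM in Loop libraries and to 248, 244 and 228 CPM in input libraries. Every HRS library lay above every Loop and every input library. The means were 451 ± 29.3 CPM in HRS, 224 ± 4.05 CPM in Loop and 240 ± 10.8 CPM in input libraries (SD, n = 3 each), a ratio of 2.01 for HRS over Loop and of 1.88 for HRS over input. Loop stood at 0.932 of input, and its libraries lay below all 3 inputs, though only just, since Loop replicate 2 and input replicate 3 both round to 228 CPM.

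On the log2 scale HRS over Loop stood at 1.00, 0.89 and 1.13 in the 3 replicate-numbered pairs, and 0.95 with both replicate 3 fractions left out. Scaling mattered for the ratios to input. By library totals the median 10 kb bin of the genome had a log2 ratio of -0.16 for HRS over input and -0.15 for Loop over input, where TMM scaling (edgeR's trimmed mean of M-values) set both near 0. Relative to those medians the stretch stood at 1.06 for HRS over input and at 0.05 for Loop over input, against 0.91 and -0.10 by library totals. The small deficit of Loop against input thus turned to 0.03 with TMM factors, while the excess of HRS over input was 1.07.

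**Figure D1:**
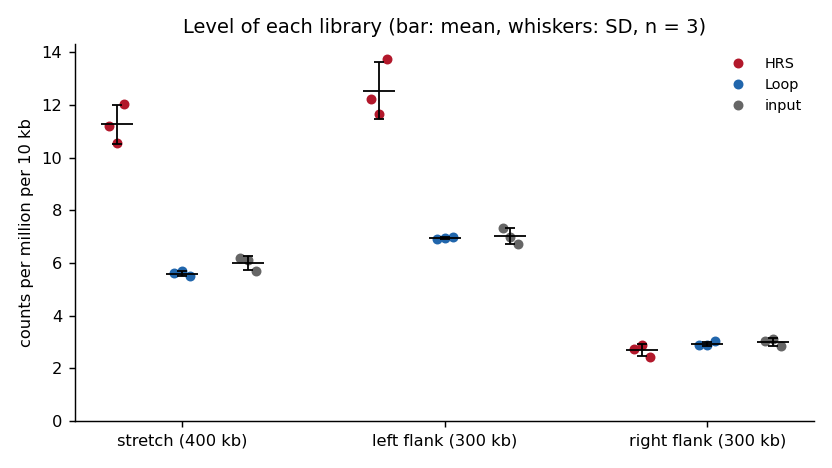
CPM per 10 kb of HRS, Loop and input libraries in the stretch and in the 300 kb flanks. Points are libraries, bars the mean of 3 and whiskers the SD. The 3 HRS libraries lie above all Loop and input libraries in the stretch and the left flank, while the 3 groups overlap in the right flank.

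Bins of 10 kb gave the same picture along the stretch. All 40 bins were called higher in HRS than in Loop by edgeR's quasi-likelihood test, a count fixed by the choice of the stretch, where 17.8% of the 245823 bins tested genome-wide were called higher. The fitted log2 ratio of these bins ran from 0.40 to 2.18 with a median of 1.10, beside a genome median of 0.01. In all 40 bins the 3 HRS libraries lay above the 3 Loop libraries, which held for 24.2% of bins genome-wide, and also above the 3 input libraries, which held for 15.5%. The choice of the stretch used the same HRS and Loop libraries, so nothing is read from these counts.

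**Figure D2:**
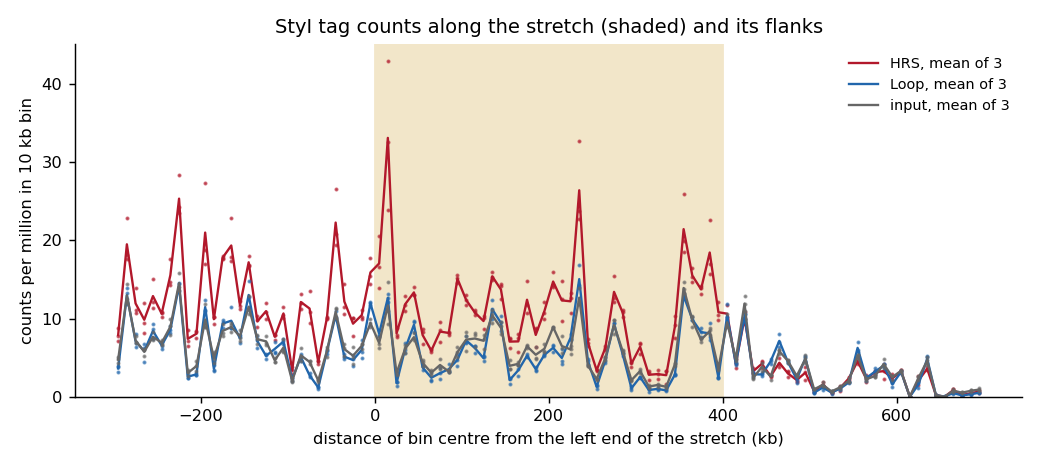
CPM of HRS, Loop and input libraries in 10 kb bins (lines for the mean of 3, points for each library) against distance from the left end of the stretch, which is shaded. The HRS line lies above both others throughout the shaded stretch and the left flank and meets them at the right end.

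The bins with the highest HRS over Loop ratio had few tags in Loop libraries. The bin chr10:127990001-128000000 had 7.59, 7.95 and 8.78 CPM in HRS libraries, 1.94, 1.94 and 1.41 CPM in Loop libraries and 3.33, 2.97 and 2.81 CPM in input libraries. Its HRS over Loop ratio was 4.52, and its Loop values lay below all 3 inputs. The others of the 5 highest were the bins starting at 128360001 (ratio 4.32), 128260001 (3.79), 128300001 (3.33) and 128120001 (3.23). Mean fragment length in these 5 bins lay between 787 and 1720 bp, beside 763 bp over the stretch. It was 907 bp in the bin of lowest ratio and between 468 and 675 bp in the rest of the 5 lowest bins. Corrected for fragment length, the ratios of the 5 highest bins were between 2.11 and 3.59.

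The bins with the lowest ratio still had HRS above Loop and input in every library. The bin chr10:128230001-128240000 had 6.50, 6.02 and 6.22 CPM in HRS libraries, 4.98, 4.64 and 4.36 CPM in Loop libraries and 5.07, 4.70 and 5.04 CPM in input libraries, with an HRS over Loop ratio of 1.32. The bins starting at 128100001 (1.36) and at 128010001, 128110001 and 128240001 (1.43 each) followed. With the length correction these 5 stood between 1.52 and 1.93. The lowest and the highest bins lay interleaved, and 128110001 and 128120001, next to each other, belonged to opposite ends of the order.

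Individual fragments showed the same excess less evenly. Of the 524 fragments, 34 had no tag in any library, and 421 reached 100 counts over the 9 libraries. Of these 421, HRS exceeded Loop on average in 379, by more than 2-fold in 283 and by more than 5-fold in 36, with a median ratio of 2.58. HRS exceeded input in 399, with a median ratio of 1.81. All 3 HRS libraries lay above all 3 Loop libraries in 296 of the 421 (70.3%) and below them in 11, where 21.5% and 16.0% of all fragments of that depth in the genome did so. The excess was spread over many fragments, as the 5 with the highest HRS level together held 4.59%, 3.88% and 5.66% of the stretch's tags in HRS libraries.

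The fragment with the highest HRS level, chr10:128360242-128360558 (316 bp, mm9), lay 9.60 kb from the right end. It had 4.75, 5.22 and 4.74 CPM in HRS libraries, 0.954, 0.556 and 1.09 CPM in Loop libraries and 1.01, 1.10 and 1.01 CPM in input libraries. Its immediate neighbour, chr10:128360558-128361323 (765 bp), had the highest HRS over Loop ratio of the stretch. There 85, 108 and 152 tags were counted in HRS libraries, 5, 7 and 2 in Loop libraries and 23, 23 and 18 in input libraries, a ratio of 33.8 for HRS over Loop and 6.89 for HRS over input. Its Loop level was 0.204 of input, so HRS lay above input and Loop below it in the same fragment. Genome-wide, fragments of 501 to 1000 bp had a Loop level of 0.564 of input.

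Further leading fragments lay near the left end. The 197 bp fragment chr10:127984943-127985140 had 4.17, 2.21 and 6.71 CPM in HRS libraries, 0.429, 0.445 and 0.698 CPM in Loop libraries and 0.563, 1.29 and 0.543 CPM in input libraries, a ratio of 8.33 for HRS over Loop. Its HRS libraries were uneven, with replicate 3 highest and replicate 2 lowest. The 185 bp fragment starting at 127985960 had a ratio of 4.73. By contrast the 80 bp fragment starting at 127987071 and the 60 bp fragment starting at 128357863 had ratios of 1.42 and 1.25, although they too were among the 5 highest in HRS. Both were well above input in HRS (3.11 and 3.19) and in Loop (2.18 and 2.56). Genome-wide, fragments up to 100 bp stood at 1.17 of input in HRS and at 2.62 in Loop.

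Fragments with the lowest ratio were the short ones. The 5 lowest, starting at 128105932, 128079755, 128241366, 128088774 and 128341254, were 53, 36, 36, 48 and 89 bp long, and had HRS over Loop ratios of 0.487, 0.534, 0.574, 0.578 and 0.590. In all 5 Loop exceeded input, by between 1.81 and 4.36 times, beside 2.62 times in fragments up to 100 bp genome-wide. The remaining fragments of high ratio, starting at 128063205 (1584 bp, ratio 13.1), 127982859 (2084 bp, 10.7), 128185359 (829 bp, 8.51) and 127982247 (458 bp, 8.37), were longer, and their Loop level lay between 0.190 and 0.405 of input. Loop over input was also below 1 genome-wide in these classes. It was 0.813 at 201 to 500 bp, 0.564 at 501 to 1000 bp, 0.537 at 1001 to 2000 bp and 0.521 above 2000 bp.

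**Figure D3:**
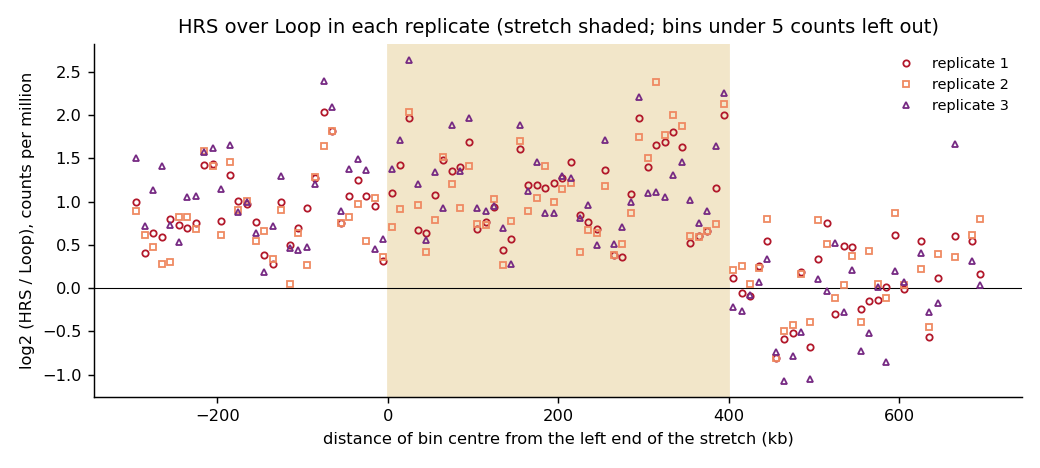
Log2 ratio of HRS over Loop in 10 kb bins for each replicate-numbered pair (points) against distance in kb from the left end of the stretch, which is shaded. All points of the 40 bins in the stretch and the 30 bins on its left lie above 0, and those on its right lie on both sides of 0. Bins under 5 counts in a library are left out.

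The HRS over Loop ratio differed with fragment length in the stretch as it did across the genome, at a higher level. Fragments up to 100 bp had an HRS over Loop ratio of 0.910 in the stretch against 0.446 genome-wide, and those of 101 to 200 bp had 1.68 against 0.751. At 201 to 500 bp the ratios were 2.46 and 1.22, at 501 to 1000 bp 3.14 and 1.61, and at 1001 to 2000 bp 3.46 and 1.72. Above 2000 bp they were 3.09 in the stretch and 1.84 genome-wide. Replicate 3 stood apart here too, with 5.40 in the third pair at 1001 to 2000 bp in the stretch against 3.08 and 2.84 in the other pairs, and 2.51 against 1.48 and 1.52 genome-wide. The stretch exceeded the genome in every length class, by between 1.68 and 2.24 times. HRS over input ran the other way with length in the stretch, between 2.33 at 101 to 200 bp and 1.65 above 2000 bp.

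**Figure D4:**
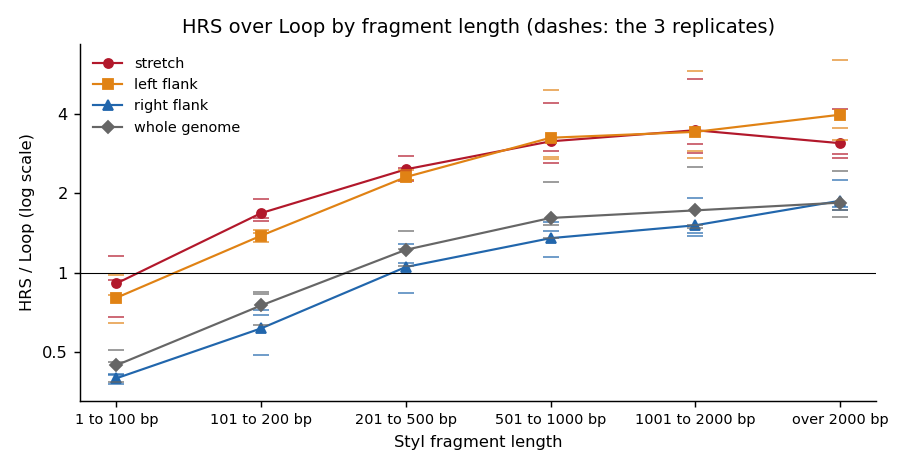
HRS over Loop ratio (log axis) by fragment length class in bp in the stretch, its flanks and the whole genome, with dashes for the 3 replicate-numbered pairs. The stretch and the left flank lie above the genome in each class, and the right flank lies close to it.

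Over the 40 bins, mean fragment length went with the HRS over Loop ratio (Pearson r = 0.523, Spearman rho = 0.552) and against the Loop over input ratio (r = -0.549), and little with HRS over input (r = 0.173). These bins share the same 9 libraries, so the coefficients are descriptions and carry no test. The length correction, which divides out the genome-wide ratio of each of 20 length classes, lowered the first coefficient to 0.210. With that correction the fitted log2 ratios of the 40 bins lay between 0.61 and 1.87, with a median of 1.08.

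The left flank carried nearly the same excess as the stretch. Its summed level was 367, 350 and 413 CPM in HRS libraries, 207, 209 and 209 CPM in Loop libraries and 220, 210 and 202 CPM in input libraries. HRS libraries all lay above the others, with ratios of 1.81 for HRS over Loop and 1.79 for HRS over input. Each had an exact two-sided permutation p of 0.1, the smallest that 3 against 3 libraries can give. Loop was 0.989 of input, with overlapping libraries (exact permutation p = 0.7). Of its 30 bins, 27 were called higher in HRS than in Loop by edgeR and none lower (DESeq2 called 29 higher and 0 lower), where 17.8% and 20.4% of bins genome-wide were called, with all 30 ratios positive and a median log2 ratio of 0.83. All 30 passed an unadjusted p of 0.05. With the replicate number as a block 29 were called higher (genome-wide 20.4%). All 30 were called higher in HRS than in input, where 15.2% of bins genome-wide were. Corrected for length, all 30 were called higher than Loop (median log2 ratio 1.01), where 15.0% of bins genome-wide were. With both replicate 3 fractions left out 28 of 30 were called higher than Loop, and the summed log2 ratio was 0.79, against 0.85 with all libraries.

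The highest called bins of the flanks lay on the left side. The bin chr10:127890001-127900000 had 10.9, 9.45 and 13.6 CPM in HRS libraries, 2.66, 3.04 and 2.57 CPM in Loop libraries and 4.20, 4.56 and 4.62 CPM in input libraries. Its HRS over Loop log2 ratio was 2.02 ± 0.17 (SE), with an edgeR adjusted p of 5.13e-08. The bin next to it, starting at 127900001, had a ratio of 3.66 (edgeR adjusted p = 1.59e-07), and the bin starting at 127750001 a ratio of 2.85 (edgeR adjusted p = 7.57e-07). The 3 bins that missed the call, starting at 127820001, 127850001 and 127960001, had log2 ratios of 0.38, 0.30 and 0.40 with edgeR adjusted p-values of 0.0788, 0.0993 and 0.0643. Their HRS over input ratios were 1.64, 1.8 and 1.86.

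The left end of the stretch was therefore set by a bin that narrowly missed the threshold, as the rule required of it. The first bin inside, starting at 127970001, had 16.6, 13.97 and 20.6 CPM in HRS libraries, 7.73, 8.55 and 7.95 CPM in Loop libraries and 7.61, 6.80 and 6.23 CPM in input libraries. The bin just outside, starting at 127960001, had 14.5, 15.5 and 17.8 CPM in HRS libraries, 11.7, 12.1 and 12.1 CPM in Loop libraries and 8.98, 9.90 and 9.40 CPM in input libraries. HRS CPM was similar in the 2 bins, while Loop and input CPM were higher in the outer one. HRS over Loop ratios were 2.09 inside and 1.32 outside. Relative to input, HRS stood at 2.73 inside and 1.86 outside, and Loop at 1.29 and 1.39. With the length correction Loop over input was 1.08 inside and 1.0 outside.

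At the right end the ratio of HRS over Loop differed sharply between neighbouring bins. The rule required the bin just outside to miss the call here too, so the change in call was fixed by the choice of the stretch. The last bin inside, starting at 128360001, had 9.84, 10.5 and 12.1 CPM in HRS libraries, 2.47, 2.40 and 2.54 CPM in Loop libraries and 3.43, 3.66 and 3.89 CPM in input libraries, a ratio of 4.32. The bin just outside, starting at 128370001, had 9.96, 11.8 and 10.2 CPM in HRS libraries, 9.18, 10.2 and 11.8 CPM in Loop libraries and 10.6, 8.94 and 9.02 CPM in input libraries, a ratio of 1.00. HRS levels in CPM were alike in both bins, while Loop and input levels were higher outside. Relative to input, HRS stood at 3.25 inside and 1.22 outside, and Loop at 0.74 and 1.2. With the length correction Loop over input was 0.93 inside and 0.928 outside. Single fragments outside had ratios on both sides of 1, and those of higher ratio named here were the longer ones. The first fragment outside, chr10:128369688-128370853 (1165 bp), had more tags in HRS libraries (45, 41 and 23) than in Loop libraries (18, 14 and 9), beside 44, 20 and 15 in input libraries. All HRS libraries also lay above all Loop libraries in the outside fragments starting at 128371045 (374 bp), 128371623 (469 bp), 128373830 (2402 bp) and 128376232 (2398 bp). Their ratios were 1.79, 1.73, 2.83 and 2.65. Other outside fragments, such as those starting at 128372092 (80 bp), 128379479 (156 bp) and 128382203 (103 bp), had ratios of 0.561, 0.638 and 0.655. Genome-wide HRS over Loop was 0.446 up to 100 bp, 0.751 at 101 to 200 bp and 1.22 at 201 to 500 bp. It was 1.72 at 1001 to 2000 bp and 1.84 above 2000 bp. Of 160 right-flank fragments with at least 100 counts, 26 (16.2%) had all HRS above all Loop libraries and 26 had them below. Genome-wide 21.5% and 16.0% of fragments of that depth did so. The last fragment inside, starting at 128368658, had 0.385 CPM in HRS, 0.261 CPM in Loop and 0.549 CPM in input libraries on average.

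The right flank showed no such excess. Its summed level was 82.5, 86.9 and 73.4 CPM in HRS libraries, 86.5, 86.9 and 90.5 CPM in Loop libraries and 91.6, 92.9 and 85.3 CPM in input libraries, and the groups overlapped. HRS over Loop was 0.920 (exact permutation p = 0.2) and HRS over input 0.899 (exact permutation p = 0.2). Of its 27 bins tested, 1 was called higher in HRS than in Loop by edgeR and 6 lower, where 17.8% and 20.4% of bins genome-wide were. The 27 include the bin starting at 128370001, which had to miss the call by the choice of the stretch. With the replicate number as a block, which pairs HRS and Loop libraries of the same number, 2 were called higher and 6 lower (genome-wide 20.4% and 22.8%). With the length correction 1 was called higher and 2 lower (genome-wide 15.0% and 8.43%). Without HRS replicate 2, without Loop replicate 3 or without both replicate 3 fractions 2 of 28 were called higher, and without both fractions the summed log2 ratio was -0.03, against -0.12 with all libraries.

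The lowest called bins of the flanks all lay on the right. The bin chr10:128420001-128430000 had 2.60, 2.73 and 2.54 CPM in HRS libraries, 4.56, 4.78 and 4.24 CPM in Loop libraries and 2.85, 2.74 and 2.19 CPM in input libraries, a log2 ratio of -0.81 for HRS over Loop (edgeR adjusted p = 0.000203). Its Loop level, rather than its HRS level, stood apart from input, at a Loop over input ratio of 1.91. With the length correction that ratio was 1.14 and the bin was not called for it (edgeR adjusted p = 0.658). The bins starting at 128430001 and 128460001 had log2 ratios of -0.74 and -0.69 (edgeR adjusted p = 0.000449 and 0.00188). With the length correction the first and the last of these had log2 ratios of -0.17 and -0.41 and were not called (edgeR adjusted p = 0.368 and 0.0588). With the replicate block added to that correction the last was called, at a log2 ratio of -0.43 (edgeR adjusted p = 0.021), and the first was not (edgeR adjusted p = 0.397). The single bin called higher, starting at 128410001, had a log2 ratio of 0.54 (edgeR adjusted p = 0.00628) and lost its call with the length correction (edgeR adjusted p = 0.173).

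Coverage itself was lower in the right flank, but input did not drop at the right end itself. Input averaged 54.6 CPM in the last 100 kb inside, 53.0 CPM in the first 100 kb outside and 23.3 CPM in the next. The right flank had 11.3 fragments per 10 kb against 13.1 in the stretch and 13.5 in the left flank, and 30.1% of its fragments had no tag in any library, against 6.49% in the stretch and 3.47% in the left flank. The median fragment had 85 tags over the 9 libraries in the right flank, 244 in the stretch and 258.5 in the left flank. The left flank exceeded the right flank by 4.45, 4.02 and 5.63 times in HRS libraries, by 2.39, 2.40 and 2.31 times in Loop libraries and by 2.40, 2.26 and 2.36 times in input libraries. This difference between the flanks was thus present in unfractionated DNA and larger in HRS libraries, which lay above all Loop libraries (exact permutation p = 0.1, the smallest possible).

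Called bins over input in the right flank were few for HRS, with 1 higher and 2 lower of 28 tested, where 15.2% and 9.16% of bins genome-wide were called. With the length correction 1 was higher and 3 lower, where the genome-wide shares were 15.5% and 9.72%. Loop over input gave 6 bins higher and 4 lower in the left flank and 4 higher and 6 lower in the right flank, where 21.5% and 18.0% of bins genome-wide were called. With the length correction edgeR called no Loop over input bin in either flank (4 passed an unadjusted p of 0.05 in the left flank and 2 in the right flank), where 0.266% of bins genome-wide were called higher and 0.0782% lower. DESeq2, run without the length correction, called 5 higher and 3 lower in the left flank and 4 higher and 3 lower in the right flank.

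Read in blocks of 100 kb, the excess ran well beyond the left limit of the stretch. The 9 blocks between 127470001 and 128370000, 900 kb in all, had HRS over Loop ratios between 1.69 and 2.91 and HRS over input ratios between 1.60 and 2.53. The extent of this run was chosen after its values were seen. The highest block, starting at 127470001, lay 500 kb left of the stretch and not in it, and all 10 of its bins were called higher in HRS than in Loop by edgeR. The block before the run had a ratio of 1.15 and the block after it 0.882. Between 300 and 500 kb left of the stretch 18 of 20 bins were called higher and none lower by edgeR (DESeq2 likewise 18 and 0), where 17.8% and 20.4% of bins genome-wide were called. All 20 were called higher after the length correction, where 15.0% genome-wide were.

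**Figure D5:**
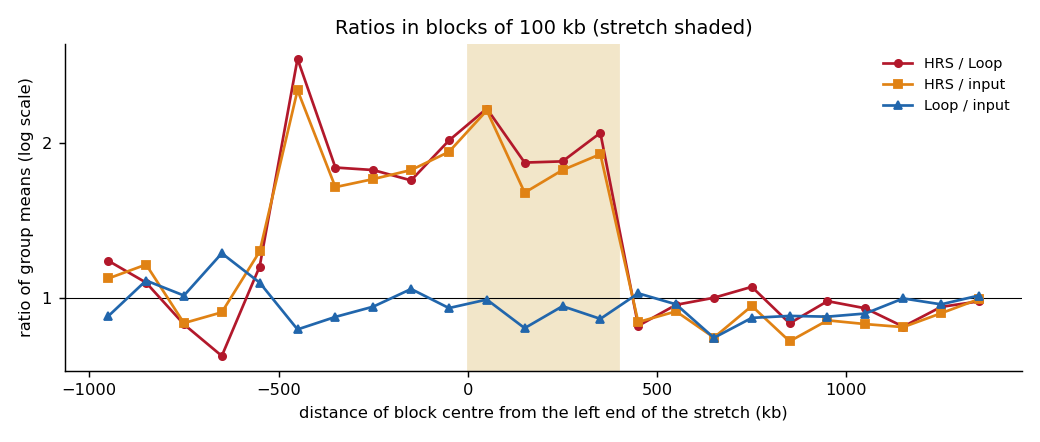
Ratios of group means for HRS over Loop, HRS over input and Loop over input in 100 kb blocks (log axis) against distance of the block's centre in kb from the left end of the stretch, which is shaded. The 9 blocks that start 500 kb left of the stretch and end with it lie between 1.69 and 2.91 for HRS over Loop, and the next block on the right lies at 0.882.

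Set among 6340 windows of 400 kb with at least 10 input CPM, the stretch ranked 20 by HRS over Loop and 28 by HRS over input, above 99.7% and 99.6% of windows. The stretch was chosen by HRS over Loop and its window follows the chosen limits, so both ranks are descriptions and support nothing. Its rank was less extreme in fragment number (524 against a median of 462 per window) and input level (240 against a median of 143 CPM), above 73.6% and 83% of windows. The 3 windows most like it in both ratios lay on chromosome 7 at 52000001-52400000 (ratios 2.03 and 1.91), on chromosome 11 at 48400001-48800000 (1.99 and 1.92) and on chromosome 15 at 102000001-102400000 (1.97 and 1.94). Likeness was the distance in log2 HRS over Loop and log2 HRS over input of the summed counts, and these windows are named by position only.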

How the data were processed

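The deposited tables hold whole-number counts of tags per StyI fragment, 1 table for each of 3 HRS, 3 Loop and 3 input libraries of E14Tg2a cells. Per the labels' protocols, StyI ends were ligated to a biotinylated adaptor, captured and cut with MmeI to short tags. CASAVA 1.8.2 and the mm9 build are named in the submitters' processing notes. The aligner, and what was done with tags that match several places, is not given in the sources used here. Repeat tables deposited with each library were not used. On each of the 21 chromosomes the interval after the final StyI site was left out.

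Fragment counts were summed by midpoint in 10 kb bins over the whole genome and tested with edgeR 4.0.16 in R 4.3.3 (glmQLFit, glmQLFTest, TMM, filterByExpr with a minimum count of 10), with Benjamini-Hochberg adjustment over all bins tested and a threshold of 0.05. Each fit held the libraries of its 2 groups. Summed flanks were compared by exact permutation of libraries. Single values are CPM on the library total. The step that fits bins was tested on simulated data. For HRS over Loop it recovered 15% of bins changed 1.5-fold and 71% of bins changed 2-fold. Recovery was 30% and 87% for HRS over input, and 42% and 83% for Loop over input. Only 100 bins were changed at each fold, whereas for HRS over Loop 17.8% and 20.4% of bins were called in the data. The adjustment was therefore stricter in the simulation, and its recovery does not carry over to these fits. In the data 1 bin with an HRS over Loop ratio of 1.32, starting at 128230001, was called. Another of 1.32, starting at 127960001, was not, so an uncalled bin is not shown to be unchanged. Alternatives were 5 and 20 kb bins, DESeq2 1.42.0, library totals, no filter, all 9 libraries in 1 fit, a correction for 20 fragment length classes, a replicate block, an adjusted p of 0.01, 200 and 500 kb flanks and leaving out each library. Leaving out both replicate 3 fractions was added after seeing the data.

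Same-numbered HRS and Loop libraries deviated together (correlations of 0.155, 0.107 and 0.23), all over 0.1, although HRS replicate 2 with Loop replicate 1 also reached 0.122. The numbers were therefore taken as pairs in the replicate block and in the ratios by pair. The main fits and the permutation tests did not use the pairing. No 2 libraries of the same group were alike within sampling noise. The members, gene lists, bins and settings were chosen with earlier results of these data known. Text names the 9 member genes and a neighbour list, the 5 highest and 5 lowest bins of the stretch by HRS over Loop, the 3 most changed called bins of the flanks in each direction, the 5 fragments highest in HRS and the 5 highest and 5 lowest in ratio among those with at least 100 counts. Bins that missed the call, the bins at both ends, the bin at 128410001 and the 100 kb blocks were named after their values were seen. Genes come from RefSeq on GRCm38.p6.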

Additional observations from a re-analysis of the deposited data

How the results depend on the processing

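The excess of HRS over Loop in the left flank kept its direction under every alternative run, with 80.0% to 90.0% of its bins called higher when each library was left out in turn and none lower. For HRS over input that share was between 93.3% and 100%. With 500 kb flanks the left flank's summed log2 ratio was 0.99, against 0.85 with 300 kb. The summed log2 ratios of the stretch were between 0.96 and 1.05 for HRS over Loop, 0.86 and 0.95 for HRS over input and -0.14 and -0.08 for Loop over input when each library was left out. With TMM factors the stretch had 1.07 for HRS over input and its Loop over input ratio reversed to 0.0313, which follows from the scaling, as the median bin moved by 0.13.

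Counts in the right flank rest on few bins and moved more, and where no construction is named the cause was not tested. For HRS over Loop the share of bins higher was 3.70%, and became 7.14% with 20 kb bins and with both replicate 3 fractions left out, 8.33% with 5 kb bins, 10.7% with all 9 libraries in 1 fit and 3.57% to 7.14% without each library (7.14% without HRS replicate 2 and without Loop replicate 3). In the paired fit with the replicate block it was 7.41%, and 7.41% again with the length correction added. The share lower was 22.2%, and became 35.7% with 20 kb bins, 7.41% with the length correction, 11.1% with the length correction and the replicate block together and 18.5% to 22.2% without each library. The replicate block changed no other call count by more than 1.5 times. For HRS over input the share higher was 3.57%, and became 7.14% with 20 kb bins, 2.04% with 5 kb bins and 0.0% to 10.7% without each library (7.14% without HRS replicate 2, 10.7% without HRS replicate 3, 0.0% without input replicate 2). The share lower was 7.14%, and became 21.4% with 20 kb bins, 2.04% with 5 kb bins, 14.3% with library totals, 0.0% at an adjusted p of 0.01 and 3.57% to 7.14% without each library (3.57% without any 1 of the inputs).

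Loop over input calls changed as well. In the left flank the share higher was 20.0%, and became 6.67% with all 9 libraries, with library totals and at an adjusted p of 0.01, 0.0% with 20 kb bins and with the length correction, and 6.67% to 20.0% without each library (10.0% without input replicate 2, 6.67% without input replicate 3). The share lower was 13.3%, and became 7.14% with 20 kb bins, 20.3% with 5 kb bins, 6.67% with all 9 libraries and at an adjusted p of 0.01, 0.0% with the length correction and 6.67% to 13.3% without each library (6.67% without input replicate 1). In the right flank the share higher was 14.3%, and became 7.14% with library totals and at an adjusted p of 0.01, 0.0% with the length correction and 7.14% to 17.9% without each library (7.14% without input replicate 3). The share lower was 21.4%, and became 10.2% with 5 kb bins, 10.7% with DESeq2, 3.57% at an adjusted p of 0.01, 0.0% with the length correction and 7.14% to 17.9% without each library (7.14% without input replicate 2, 10.7% without input replicate 1 or 3 or Loop replicate 1 or 2).

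With 3 libraries per group an exact test of a summed level cannot go below 0.1. The right flank holds fewer tags per fragment than the stretch. The inputs carry titles that are not explained, and no gene was placed on mm9. Short fragments hold more tags in Loop than in HRS libraries genome-wide, and the length correction is the fit that allows for it.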
